A study of Mus musculus with 9 samples.

Results

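The genes described here are 10 members of the circuit that drives branching of the ureteric bud in the developing kidney: Gdnf, Ret, Gfra1, Wnt11, Wnt9b, Wnt7b, Etv4, Etv5, Spry1 and Emx2. They were taken by symbol from the gene probes of 2 Agilent arrays made from mouse pups on postnatal day 3 (PND3). All 10 genes were on the arrays, with 13 of the 41174 gene probes. A gene is called measured here where the scanner put a probe of it well above background for the mutant pool or the WT pool on each array. By that rule 9 of the 10 were measured, among 20922 genes in all. No older symbol of a member was in use on the array.

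The series compared mice homozygous for the Glis3zf mutation, labelled Glis3 mutant or Glis3zf/zf, with wild-type (WT) mice, all of the C57BL/6 strain. Each genotype is represented by a single pool made from 2 pups, of which 500 ng of total RNA was amplified for labelling. Both arrays carried mutant RNA and WT RNA with the dyes exchanged: on the first array the mutant RNA was in Cy3, on the second in Cy5. The 2 arrays are thus a technical pair, and the differences have no biological replicate and no p-value is given. The series also holds 4 mutant and 3 WT samples of embryonic day 15.5 on another platform, whose probe sets were not paired with gene names here. The labels name pancreas as the tissue. Kidney genes were nevertheless well above background in both pools, with 7 of 7 nephron segment genes measured. Umod, the uromodulin gene of the thick limb, gave a mean scanner signal of 47870 for mutant RNA and 50920 for WT RNA. Of the pancreas lists, 7 of 7 acinar genes on the array, 5 of 5 duct genes and 3 of 6 islet hormone genes were measured, and Ins1, Gcg and Ppy did not meet the rule. Of all 28786 named genes on the arrays, 20922 were measured, so a count of measured genes does not by itself name a tissue. Mean scanner signals for mutant and WT RNA were 693.1 and 640.5 for Ctrb1, the brightest acinar gene. They were 89.1 and 88.9 for Ins2, the brightest islet hormone gene, and 5380 and 4126 for Krt19, the brightest duct gene. The ratios below are given as those of these RNA pools. The pools also differed in Y-linked genes and in ovary and oocyte genes, as described with Emx2 below. The part of those differences in the members' ratios was not tested. Glis3 itself was well above background on both WT readings and on neither mutant reading. This does not check the genotype, because the place of the probe relative to the mutation is unknown here.

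In the kidney, glial cell line derived neurotrophic factor (GDNF) is secreted by mesenchyme and binds GFRα1 on the tips of the ureteric bud, which lets the receptor tyrosine kinase Ret signal. Ret signalling raises the ETS transcription factors Etv4 and Etv5 and the tip Wnt ligand Wnt11, while Sprouty 1, encoded by Spry1, restrains it. Wnt9b, from the stalk, induces nephron formation in the mesenchyme, Wnt7b acts in the growth of the medulla and collecting ducts, and the homeobox factor Emx2 is needed in the bud epithelium.

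The Etv4 probe, both Emx2 probes and the single Ret probe are shown by their first 30 of 60 bases, 5′ to 3′ as the files list them, because each of these values rests on 1 or 2 such oligonucleotides. Their genome positions were not used here.
Etv4, probe A_51_P230382: tggaggcaggccaaatctaaaggcagtagc
Emx2, probe A_52_P455251: ttgtcgggcgaatggtgtctaaaaactgaa
Emx2, probe A_52_P462837: gaggggaagaaaaaccctacaaaacaaaaa
Ret, probe A_51_P324191: ctgggttcccaagatatgcaaatgatagtg
The whole Etv4 probe had a GC content of 53.3%, the Emx2 probes of 35.0% and 45.0%, and the Ret probe of 43.3%. No pair of member probes shared a run of more than 9 bases, and the 2 Emx2 probes shared at most 6, so they read different stretches of that transcript.

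The comparison asked how these genes differed between mutant and WT pups after birth. Wnt7b stood highest in the mutant pool, at 1.68-fold the WT level, followed by Etv4 at 1.30-fold and Gdnf at 1.18-fold. Emx2 stood lowest, at a mean log2 ratio of -0.32 on its brighter probe and -0.48 on the other. With the scanner's signals Etv4 and Gdnf changed places, with Gdnf at a mean log2 ratio of 0.44 and Etv4 at 0.43. Wnt9b was slightly lower in the mutant pool and Wnt11, Gfra1 and Etv5 lay near equality, although median centring put Wnt11 at -0.24. None of the 9 measured members was 2-fold apart on both arrays, a rule that 0.191% of all measured genes met (mutant over WT, 0.0335% upward and 0.158% downward), and none was 1.5-fold apart on both, which 0.884% of genes met. The 1.5-fold count depends on the processing: with the scanner's own signals Wnt7b met that rule, as did 2.7% of all genes. Members' ratios had a median of 0.07 and ran from -0.32 to 0.74 on the log2 scale, beside a median of -0.01 over all measured genes. Of the 9, 3 were above 0 on both arrays (Gdnf, Wnt7b and Etv4), beside 30.9% of all genes, 3 were below 0 on both (Wnt11, Wnt9b and Emx2), beside 37.8%, and 3 differed in sign between arrays (Gfra1, Etv5 and Spry1). The share with the same sign on both arrays, 6 of 9 or 66.7%, was near the 68.7% of all measured genes. With whole-tissue RNA, fewer cells of a type and less RNA per cell cannot be told apart in any of these values.

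**Figure D1:**
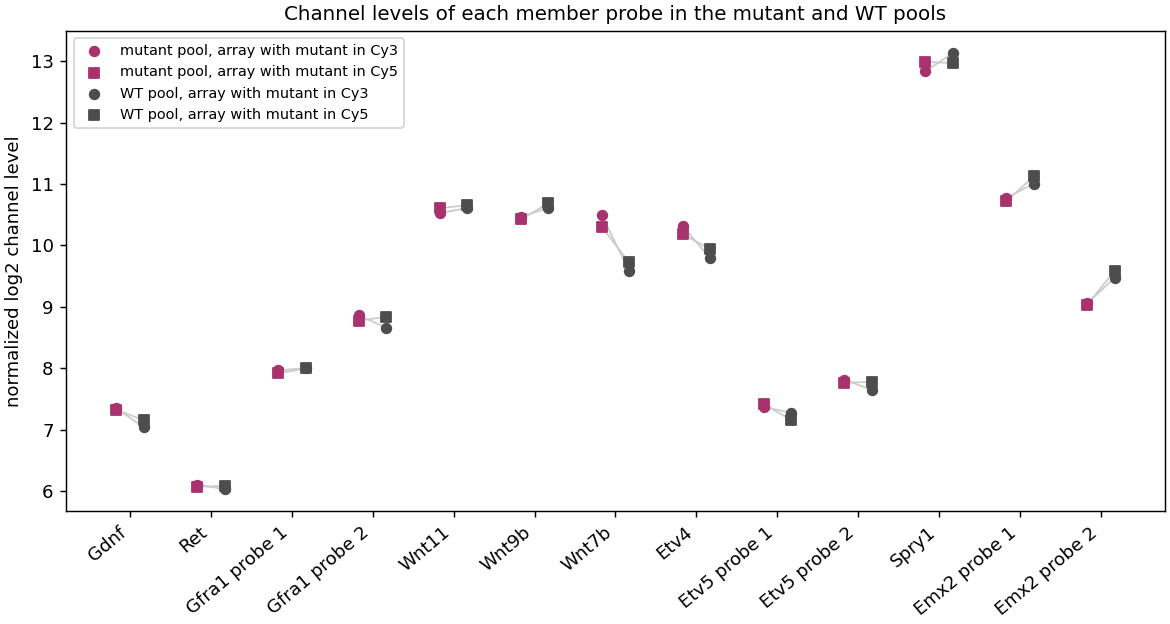
Normalized log2 channel level of each member probe (vertical axis) in the mutant pool and the WT pool, on the first array (circles, mutant in Cy3) and the second (squares, mutant in Cy5), with lines joining the 2 channels of an array. For Wnt7b the mutant readings, 10.50 and 10.30, lie above the WT readings, 9.59 and 9.72, and for both Emx2 probes the mutant readings lie below the WT readings. Levels of different probes are not comparable.

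Gdnf, the ligand, had 1 probe. Its normalized log2 channel levels (which include an offset of 50 intensity units) were 7.35 and 7.33 in the mutant pool on the first and second array, against 7.04 and 7.15 in the WT pool. The mutant readings lay above the WT readings without overlap. The log2 ratios of mutant over WT were 0.30 and 0.17, with a mean of 0.24 ± 0.09 (SD between the 2 arrays). Of all measured genes, 1581 (7.56%) had a higher mean ratio. The probe was dim: the mutant pool gave scanner signals of 126.2 and 106.1, the WT pool 84.2 and 86.8, and the scanner software's own ratio, which has no such offset, averaged 0.44. Here and below, lack of overlap between 2 technical readings per pool is no measure of a difference between genotypes. Wnt11 also lacked overlap, at a mean log2 ratio of -0.06, and the share of all genes without overlap is not given here.

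Ret, the signalling receptor, was the member without a measured level. Its 1 probe was printed in 10 spots per array, and in the mutant pool none of them was well above background on either array. In the WT pool none was on the first array and 1 of 10 was on the second. Scanner signals of the spots ran from 3.63 to 12.4 in the mutant pool on the first array and from 3.50 to 12.2 on the second. In the WT pool they ran from 3.09 to 12.8 on the first array and from 2.57 to 14.0 on the second. Spot signals of the 2 pools overlapped on both arrays. Because neither pool was well above background, no fold is given for Ret, and the probe sets only a bound on what can be read from these arrays.

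Gfra1, the co-receptor that binds GDNF, had 2 probes, both measured in either pool. The brighter probe, A_52_P398998, read log2 levels of 8.86 and 8.78 in the mutant pool and 8.66 and 8.84 in the WT pool, and these overlapped. Its ratios were 0.20 and -0.06, with a mean of 0.07 ± 0.19 (SD between arrays). The dimmer probe, A_52_P311022, gave ratios of -0.04 and -0.08, a mean of -0.06 ± 0.03 (SD between arrays), with mutant readings below WT readings. The 2 probes thus lay on opposite sides of 0 by amounts smaller than the difference between the arrays for the brighter one.

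Of the transcription factors downstream of Ret, Etv4 had the larger ratio. Etv4 read log2 levels of 10.31 and 10.18 in the mutant pool, against 9.79 and 9.94 in the WT pool, with no overlap. Its ratios were 0.52 and 0.24, a mean of 0.38 ± 0.20 (SD between arrays), and 399 of the measured genes (1.91%) had a higher mean ratio. Etv5 had 2 probes, both with a positive mean ratio. The brighter one, A_52_P631015, read 7.82 and 7.76 in the mutant pool and 7.64 and 7.78 in the WT pool, with overlap and a mean ratio of 0.08 ± 0.13. The dimmer one, A_51_P323579, read 7.37 and 7.42 in the mutant pool and 7.28 and 7.16 in the WT pool, without overlap and with a mean ratio of 0.18 ± 0.12 (SD between arrays). Whether Etv4 and Etv5 differ from each other in their ratios was not tested.

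Spry1, the inhibitor that Ret signalling induces, was bright, and its arrays disagreed. The mutant pool read 12.83 and 12.99 and the WT pool 13.13 and 12.97 on the log2 scale, and these overlapped. The ratio was -0.30 on the first array and 0.02 on the second, a mean of -0.14 ± 0.22 (SD between arrays). No direction can be given for Spry1 from these arrays.

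**Figure D2:**
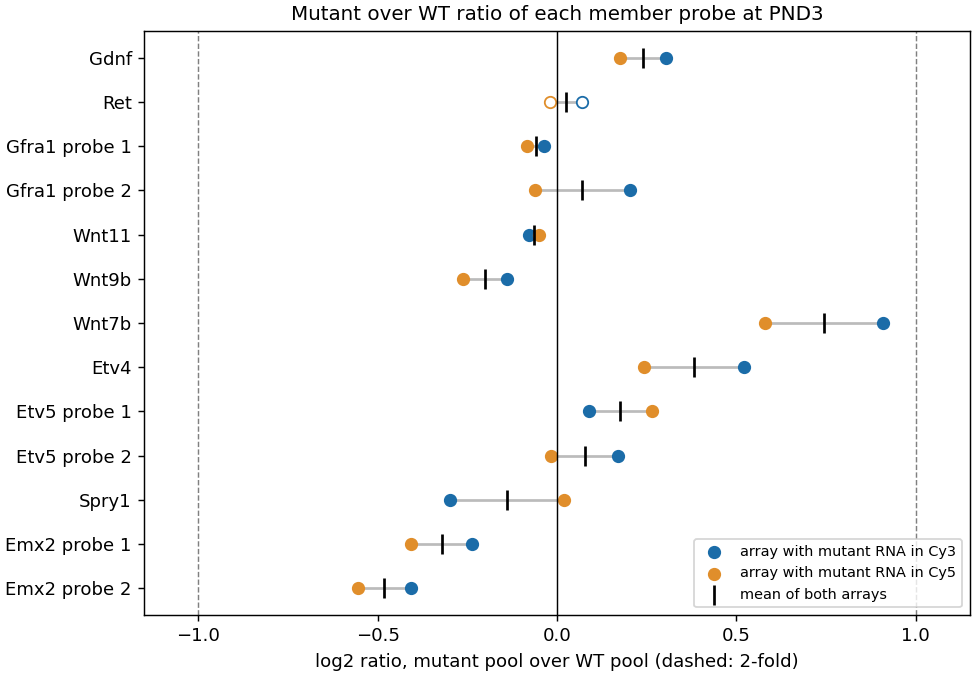
Log2 ratio of the mutant pool over the WT pool (horizontal axis) for each of the 13 member probes, on the first array (blue, mutant in Cy3) and the second (orange, mutant in Cy5), with the mean as a black tick and open circles for Ret, whose probe was not well above background. Wnt7b stands farthest to the right at a mean of 0.74, both Emx2 probes stand to the left at -0.32 and -0.48, and no probe reaches the 2-fold lines.

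The 3 Wnt ligands stood apart from each other. Wnt7b read log2 levels of 10.50 and 10.30 in the mutant pool, against 9.59 and 9.72 in the WT pool, a gap between the pools larger than that between the arrays. Scanner signals for Wnt7b were 1487 and 1174 with mutant RNA, against 792.2 and 730.9 with WT RNA. The ratios were 0.91 and 0.58, with a mean of 0.74 ± 0.23 (SD between arrays), and 27 of 20922 measured genes (0.129%) had a higher mean ratio. On the second array the ratio lay just under the 1.5-fold line of 0.585 on the log2 scale, whereas the scanner's own Wnt7b ratios, 0.91 and 0.68, were both past it. Wnt9b read 10.47 and 10.42 in the mutant pool, against 10.61 and 10.68 in the WT pool, without overlap. Its mean ratio was -0.20 ± 0.09 (SD between arrays), and 12.2% of measured genes had a lower one. Wnt11, the tip ligand, read 10.53 and 10.61 in the mutant pool and 10.61 and 10.66 in the WT pool. The pools differed by 0.06 log2 units in Wnt11, with mutant readings just below WT readings and ratios of -0.08 and -0.05. Each of the Wnt genes had 1 probe, so no second probe checks these values.

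Emx2 had 2 probes that shared a direction. The brighter one, A_52_P455251, read log2 levels of 10.77 and 10.72 in the mutant pool, against 11.01 and 11.12 in the WT pool. Its ratios were -0.24 and -0.41, a mean of -0.32 ± 0.12 (SD between arrays), and 937 measured genes (4.48%) had a lower mean ratio. The other, A_52_P462837, read 9.06 and 9.03 in the mutant pool, against 9.47 and 9.59 in the WT pool, with a mean ratio of -0.48 ± 0.10 (SD between arrays). On both probes every mutant reading lay below every WT reading. The pools also differed in ovary and oocyte genes. Emx2 is also known from the embryonic gonad and genital ducts. Of 10 ovary and oocyte genes, all were measured and 9 were below 0 on both arrays, beside 37.8% of all genes. At least 2-fold lower in the mutant pool on both were 6, beside 0.158% of all genes. The median log2 ratio of the 10 was -1.26, against -2.55 without the offset and -3.17 with the scanner's signals. Of the 10, 6 were well above background in both pools. Their scanner signals summed to 560.8 and 480.7 in the mutant pool, against 2996 and 2715 in the WT pool. Padi6 stood at -2.46 and Gdf9 at -1.61, whereas Foxl2, a granulosa cell factor, stood at 0.10 and Amh at -0.05. Of 4 measured sex-linked genes, the Y-linked Eif2s3y stood at 1.29 and Ddx3y at 0.91, and Xist at 0.03 on its brightest probe, with others from -0.17 to 0.11. The part of these tissue and sex differences in the Emx2 ratio, or in that of any other member, was not tested.

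**Figure D3:**
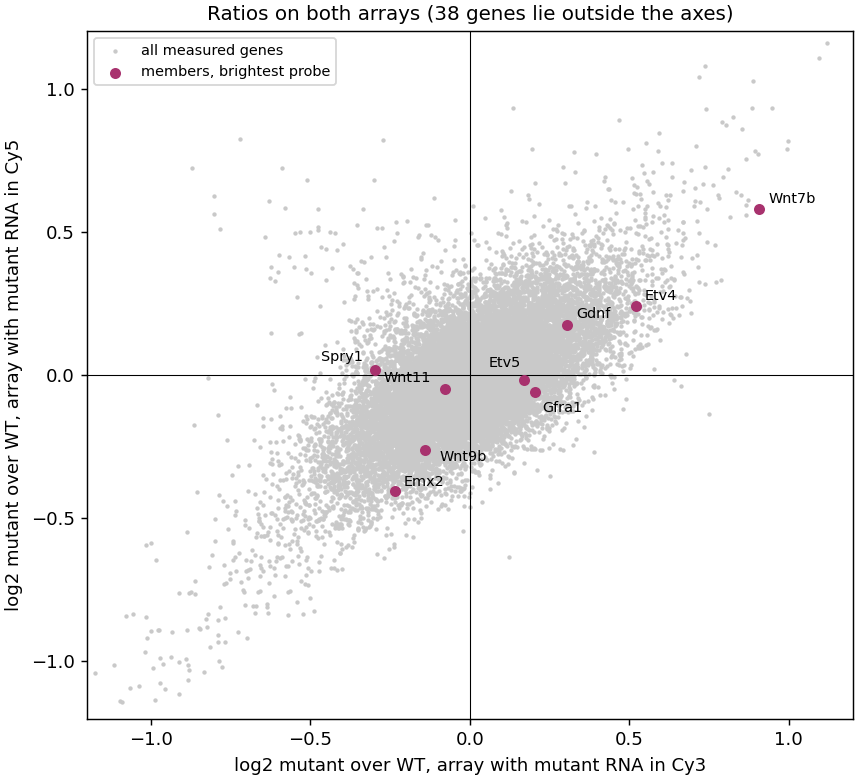
Log2 mutant over WT ratio on the first array (mutant in Cy3, horizontal axis) against that on the second (mutant in Cy5, vertical axis) for all measured genes (grey) and the brightest probe of the 9 measured members (magenta). Wnt7b lies at the upper right edge of the cloud at 0.91 and 0.58, Emx2 at the lower left at -0.24 and -0.41, and Spry1, Etv5 and Gfra1 lie where the arrays differ in sign. Another 38 genes lie beyond the axis limit of 1.2.

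The arrays themselves set how finely these ratios can be read. Over all measured genes the ratios of the 2 arrays correlated at r = 0.683 (across genes, so not over replicates), and differed by a median of 0.11 log2 units. The 90th percentile of that difference was 0.265. Of the 9 measured members, 3 exceeded it, with differences of 0.33 for Wnt7b, 0.32 for Spry1 and 0.28 for Etv4. For 7 of 9 members the ratio was higher on the first array, against 55.1% of all measured genes. The members' median was 0.17 on the first array and -0.02 on the second. A dye effect cancels in the mean of a dye-swapped pair only where it is additive on the log2 scale and equal on both arrays. Whether dye has a part in this difference between the arrays was not tested.

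Other genes of the pathway were taken from 5 lists of 100 genes, of which 97 were measured. None was 2-fold apart on both arrays, beside 0.191% of all measured genes. Of the 97, 2 were 1.5-fold lower on both, Gas1 among them, beside 0.626% of all genes lower by that rule. The median over the 97 was -0.01, the same as over all genes. On both arrays 34 were above 0 and 41 below 0, near the 30.9% and 37.8% of all genes.

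On the receptor side, 15 of 15 genes were measured, with a median log2 ratio of -0.03. Gas1, a GPI-anchored protein related to the GFRα family, stood at -0.59 and -0.64, with a mean scanner signal of 1787 for mutant RNA and 2784 for WT RNA. The exchange factor gene Sos1 stood at -0.25, the adaptor gene Gab1 at -0.14 and Gfra4 at -0.16, where 2 further Gfra4 probes gave 0.01 and 0.03. The other GDNF family ligands Nrtn, Artn and Pspn stood at 0.05, -0.03 and 0.06.

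The list of Ret targets and feedback genes in the tip had the lowest median of the pathway lists, -0.20 over 12 measured genes, with 9 below 0 on both arrays, beside 37.8% of all genes. Myc stood at -0.43, with its other probes at -0.46 and -0.14. The Sprouty relative Spry2 stood at -0.23 on its brighter probe and 0.10 on the other, and Spred1 at -0.26 on its brightest probe with 0.01 and 0.05 on the others. Sox9 stood at -0.24 on its brightest probe and at -0.01 and 0.04 on the others. With a gene's probes averaged, the list's median was -0.07, so its size rests partly on the probe used. Dusp6, a phosphatase that restrains ERK signalling, stood at 0.13 and Cxcr4 at 0.15, and Sox8 was not measured. Etv4, a member and itself a Ret target, lay at 0.38, on the other side of 0 from the list's median.

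Among regulators of Gdnf and of budding, 25 genes had a median of 0.06. On both arrays 13 were above 0 and 8 below 0, beside 30.9% and 37.8% of all genes. Gata3, a factor of the nephric duct and ureteric bud, stood at 0.62 and 0.46, and Bmp4, a mesenchymal inhibitor of budding, at 0.50 and 0.39. Osr1 stood at 0.39 on its brighter probe and 0.13 on the other, and the protocadherin gene Fat4 at -0.33 and -0.28 on its 2 measured probes. The mesenchymal factors that act upstream of Gdnf lay close to it, with Six2 at 0.27, Sall1 at 0.26 and Eya1 at 0.21, beside 0.24 for Gdnf. Among 39 Wnt pathway genes the median was 0.02. Wnt10a stood at 0.58 and 0.71, the secreted Wnt antagonist Sfrp2 at -0.58 and -0.34, and the Frizzled-degrading ligase Znrf3 at -0.41 and -0.35. Dkk1, another antagonist, stood at 0.42 on its brighter probe and at -0.08 on the other. The target gene Axin2 stood at -0.20, and Lef1 at -0.07 on its brightest probe and 0.07 on another. The 6 epithelial factors grouped with Emx2 lay between -0.06 and 0.06, with Emx1, its paralog, at 0.06.

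**Figure D4:**
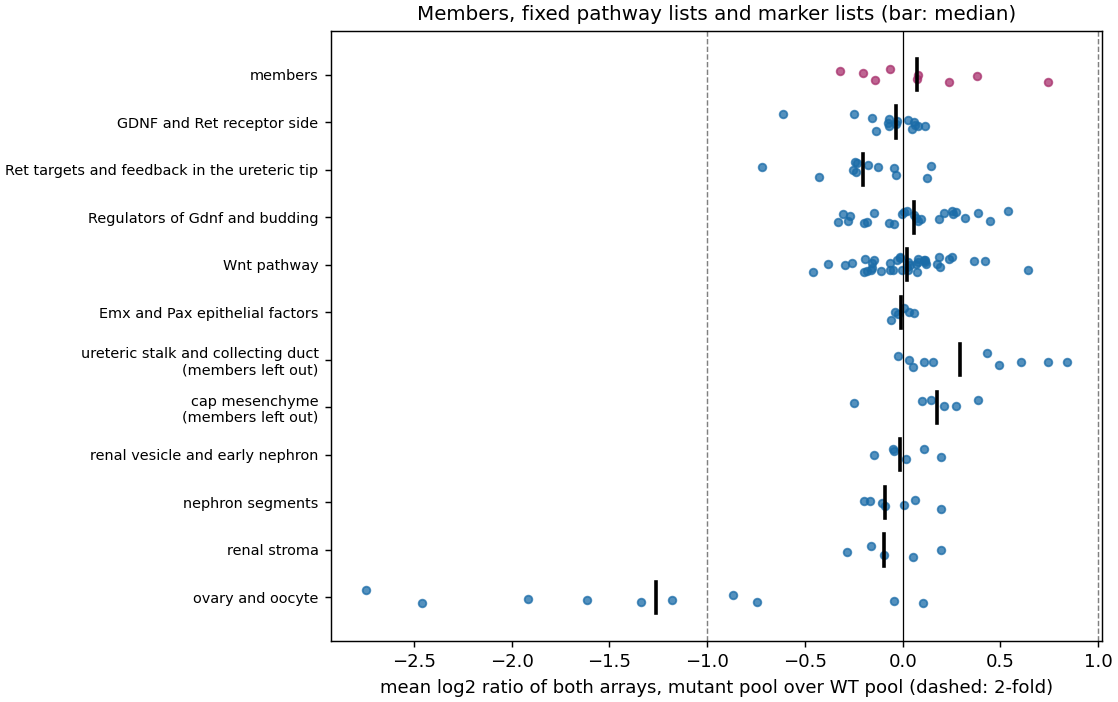
Mean log2 ratio of both arrays, mutant pool over WT pool (horizontal axis), for each measured gene of the members (magenta) and of the fixed pathway and marker lists (blue), with a black bar at each median. Medians lie between -0.20 and 0.06 for the pathway lists, at 0.29 for ureteric stalk and collecting duct markers, and at -1.26 for ovary and oocyte genes.

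Markers of the stalk and collecting duct, where Wnt7b is expressed, stood higher in the mutant pool together with it. Without the members, 10 of 10 such genes were measured, with a median log2 ratio of 0.29. Beside 30.9% of all genes above 0 and 37.8% below 0 on both arrays, 9 of these genes were above 0 on both and none was below. Their scanner signals summed to 222500 and 190100 in the mutant pool, against 146600 and 140300 in the WT pool. The keratin genes Krt18 and Krt8 stood at 0.84 and 0.74, the vasopressin receptor gene Avpr2 at 0.60 and the water channel gene Aqp2 at 0.49, whereas the water channel gene Aqp3 stood at -0.02. Centring each array on its median in place of loess gave 5 above 0 and 4 below 0 on both arrays, with a median of 0.09. Under that centring the median of all genes was -0.11, and 19.2% of them were above 0 and 54.4% below 0 on both arrays. The part of these cells in the Wnt7b ratio was not tested.

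Cap mesenchyme, the source of GDNF, had a median of 0.18 over 6 genes without Gdnf. On both arrays 4 were above 0 and 1 below 0, beside 30.9% and 37.8% of all genes. Summed scanner signals of these 6 were 7963 and 6562 in the mutant pool and 7026 and 6585 in the WT pool, so the sums overlapped. Crym stood at 0.10, Cited1 at 0.15, and Meox1 at -0.25. For the tip itself, markers that are not members gave 1 measured gene, so the tip marker list does not add to what the members show. Early nephron genes had a median of -0.01 over 6 genes (Jag1 -0.05, Lhx1 -0.05, Wnt4 0.11), nephron segment genes -0.09 over 7 (Slc12a1 -0.20, Lrp2 -0.17) and renal stroma genes -0.10 over 5 (Col1a1 -0.10 on its brightest probe with -0.36 and 0.03 on the others, Tcf21 0.19, Pdgfrb 0.05).

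**Figure D5:**
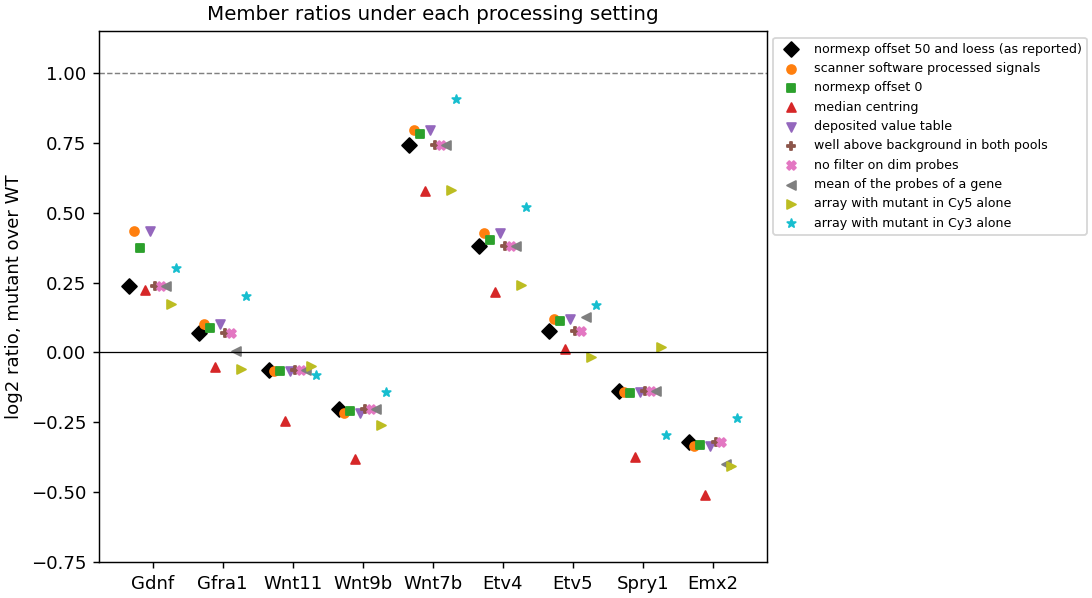
Log2 ratio of mutant over WT (vertical axis) of the 9 measured members under the processing reported here (black diamonds) and 9 alternatives (coloured markers). Wnt7b stays between 0.58 and 0.91 and Emx2 between -0.51 and -0.24, while the values of Gfra1, Etv5 and Spry1 cross 0.

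The scanner software's own ratios put 8 of 9 members on the same side of 0 on both arrays, against 73.6% of all genes. Gfra1 then averaged 0.10, Spry1 -0.14 and Etv5 0.12, with Etv5 alone differing in sign between the arrays.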

How the data were processed

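Members and gene lists were chosen with earlier results of these data known. Per the file headers, the authors' PND3 arrays give spot and background intensities and processed signals (background subtracted, dyes normalized), together with the scanner's log10 ratio of Cy5 over Cy3 and, as other columns, quality flags. Feature Extraction is version 9.1.3.1 per the file headers and 8.1 per the submitters' processing notes. The deposited value table holds log2 ratios of mutant over WT, as found by setting it against the scanner's ratio (r = 0.9996 or more, median 0). The E15.5 table was not used, since no table given here names its probe sets.

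With R 4.3.3 and limma 3.58.1, background was corrected by normexp (offset 50, which draws dim ratios toward 0), loess normalization was run array by array, with controls at weight 0, and channel levels by Aquantile. Outlier spots (18 and 26) were left out. No spot was saturated. Of 41174 probes, 22951 took a RefSeq symbol through their accession (GRCm38.p6, names only). A gene was represented by the brightest of its measured probes (flagged well above background on each array in the mutant or the WT channel, and for repeated spots in over 50% of them). Named genes were the members, Glis3, up to 4 genes per pathway list with the largest ratios, and up to 3 bright or any 2-fold genes per marker list. Others were chosen after their values were seen. The procedure was tested on simulated data. Some results are not reported here.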

Additional observations from a re-analysis of the deposited data

How the results depend on the processing

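No member met the reported fold rule under any of the 10 alternatives run, namely the scanner's processed signals, normexp without an offset, median centring, the deposited value table, the filter in both genotypes, no filter, averaged probes, each array alone and a 1.5-fold threshold. Counts of pathway genes were 0, except for 1 with the scanner's signals and 1 with the deposited table (Fgf7, lower in the mutant pool) and 2 at 1.5-fold (Gas1 among them). Over all genes, 175 passed with the scanner's signals and 100 without an offset, against 40 as reported. The 1.5-fold rule under other processing, added after seeing the data, called 1 member, Wnt7b, with the scanner's signals, without an offset, with the deposited table and on the first array alone, and 0 otherwise. Of all genes, 2.7% met it with the scanner's signals and with the deposited table, 1.85% without an offset and 1.77% on the first array alone. In the settings that called no member the share ran from 0.643% to 1.38%. The cause of this dependence on processing was not tested. The members' median was -0.02 to 0.17 with each array alone, and -0.05 with median centring, where the median of all genes was -0.11. Of 81 member values, 7 moved by more than the SD between arrays: Gdnf to 0.44 (scanner's signals and deposited table) and 0.37 (no offset), and with median centring Wnt11 to -0.24, Wnt9b to -0.38, Spry1 to -0.38 and Emx2 to -0.51. Many of the 81 could not move: an array alone always lies within that SD of the mean, and both filter settings left every member value unchanged. The deposited table repeated the scanner's values. The 7 of 81 is therefore no measure of stability. Of the 81, 4 changed sign: Gfra1 with median centring (-0.05) and without the first array (-0.06), and Etv5 (-0.02) and Spry1 (0.02) without the first array. Gdnf, Wnt11, Wnt9b, Wnt7b, Etv4 and Emx2 kept their sign in all 9 alternatives that give a ratio. No paired analysis was possible because the result comes from no test, with 1 pool per genotype. The E15.5 fit and its alternatives were not run, since no table names the probe sets. Dim signal limits what the arrays show for Ret and Gdnf.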

Other observations

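Markers of other tissues that could hold some members were also read. Nerve and glia genes, of interest because Ret and Gfra1 act in neurons, had a median log2 ratio of -0.03 over 5 measured genes, with S100b at -0.64 and Elavl4 at 0.33. Their scanner signals summed to 1032 and 892.3 in the mutant pool, against 1167 and 1076 in the WT pool. Adrenal genes had a median of -0.01 over 5, with Hsd3b1 at -0.59 and Nr5a1 at 0.26. Pancreas acinar genes had a median of -0.01 over 7, with Ctrb1 at 0.08 and Cpb1 at -0.25, islet hormone genes -0.02 over 3, with Ins2 at -0.01, and pancreas duct genes -0.16 over 5, with Krt19 at 0.38 and Tff2 at -0.51.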
